A study of Mus musculus with 4 samples.

Results

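The genes described here encode the receptors for type I and type II interferon and the proteins that carry the signal inside the cell: Ifnar1, Ifnar2, Ifngr1, Ifngr2, Tyk2, Stat2, Irf9, Irf3 and Irf7. These 9 genes were taken by name, from 33069 protein-coding and lncRNA genes on the autosomes, and each was read over its mm10 span with 5000 bp added on each side. DNA methylation at CpG sites had been measured by whole-genome bisulfite sequencing in microglia, the macrophages of the brain, from the mouse hippocampus at postpartum week 3. There were 2 control libraries and 2 libraries labelled FGR, in a study whose title names growth restriction in the womb. All 4 came from mice of genotype Tmem119-tdTomato+/-, a red fluorescent reporter at a gene that microglia express, so controls and FGR mice carried the same allele. The labels do not say how growth restriction was brought about, how the cells were isolated, or whether a library stands for 1 animal or a pool, so every p-value measures only the spread between these libraries.

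Type I interferons bind a receptor built from Ifnar1 and Ifnar2, and interferon gamma binds a receptor built from Ifngr1 and Ifngr2. The kinase Tyk2 sits on Ifnar1, and after ligand binding Stat2 is phosphorylated and joins Irf9 in a complex called ISGF3, which binds interferon-stimulated response elements. Irf3 and Irf7 act upstream: nucleic acid sensors activate them, and they switch on the type I interferon genes, with Irf7 itself an interferon-induced gene. Microglia use this pathway in antiviral defence and in responses to injury and ageing. In mammals most CpGs are methylated, whereas CpG-rich gene starts (CpG islands) are usually free of methylation, whether or not the gene is strongly transcribed.

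The sequences before the starts show how unlike each other these genes are in the sites that can be methylated. RefSeq promoter windows of GRCm38.p6, the assembly of mm10, run from 250 bp before to 50 bp after a start, and all 9 genes had one. Ifngr2 held 31 CpGs in its 300 bp, Ifnar1 26, Tyk2 23, Stat2 22, Ifnar2 and Irf3 18 each, Ifngr1 14, Irf9 9 and Irf7 7, beside a median of 7 over 32851 promoters. The 250 bp before 4 of the starts are printed 5′ to 3′ on the strand of the gene, with every CpG in capitals, because they span this range and the 4 differ in what the libraries list there. Ifngr2 (chr16:91546809-91547058, plus strand) has the most CpGs and Irf9 (chr14:55603735-55603984, plus strand) few. Tyk2 (chr9:21131276-21131525, minus strand) had every CpG of its window listed in some library. Stat2 (chr10:128270248-128270497, plus strand) holds the only interferon-stimulated response element core among the 9 starts used.
Ifngr2: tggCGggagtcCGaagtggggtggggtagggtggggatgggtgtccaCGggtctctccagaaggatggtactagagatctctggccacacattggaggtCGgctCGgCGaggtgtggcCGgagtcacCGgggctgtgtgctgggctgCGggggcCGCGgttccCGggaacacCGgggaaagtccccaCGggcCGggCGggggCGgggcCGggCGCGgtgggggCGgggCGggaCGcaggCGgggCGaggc
Tyk2: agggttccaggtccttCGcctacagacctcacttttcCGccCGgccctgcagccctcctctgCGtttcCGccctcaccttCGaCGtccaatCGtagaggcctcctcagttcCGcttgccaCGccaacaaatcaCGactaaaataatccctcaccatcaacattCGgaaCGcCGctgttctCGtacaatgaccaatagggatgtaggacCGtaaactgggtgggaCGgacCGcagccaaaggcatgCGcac
Stat2: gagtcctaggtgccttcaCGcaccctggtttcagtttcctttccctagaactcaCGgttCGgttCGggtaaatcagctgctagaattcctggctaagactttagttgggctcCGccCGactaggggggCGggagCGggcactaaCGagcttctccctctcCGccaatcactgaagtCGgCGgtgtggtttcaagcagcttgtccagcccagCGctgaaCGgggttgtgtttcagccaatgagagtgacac
Irf9: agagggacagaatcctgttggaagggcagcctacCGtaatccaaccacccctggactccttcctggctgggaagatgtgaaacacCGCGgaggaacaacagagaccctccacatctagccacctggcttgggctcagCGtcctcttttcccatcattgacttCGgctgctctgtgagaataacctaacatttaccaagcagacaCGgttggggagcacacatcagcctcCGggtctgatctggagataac

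The response element core was searched as GAAA, any 2 bases and GAAA again, on both strands, and its match in Stat2 was tttcagtttc, which begins at -222 bp relative to the start, holds no CpG and overlaps no other motif searched. Of all promoter windows, 3.44% held this core. A gamma-activated site, searched as TTCNNNGAA on both strands and present in 8.30% of windows, matched in Ifnar1 from -5 bp, where it spans 1 CpG, and in Ifnar2 from -214 bp, with none. A GC box (GGGCGG, in 35.7% of windows) and a CCAAT box (CCAAT, in 37.4%) were searched likewise. The GC box was found at Ifnar1, Ifnar2, Ifngr1, Ifngr2, Stat2, Irf3 and Tyk2, the CCAAT box at Ifngr1, Ifngr2, Stat2 and Tyk2, and none of the 4 motifs at Irf7 or at the start of Irf9 used here. RefSeq lists a second start of Irf9 at chr14:55604579, whose window holds 1 CpG and a GC box. Such matches describe letters and are not evidence of binding.

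The tables list only cytosines read at least 5 times on their strand, and CpG-rich promoters were thinly listed. Across all autosomal promoters with 31 or more CpGs, between 3.77 and 5.54% of the CpGs were listed in a library, against 32.8 to 52.2% in promoters with 1 to 5 CpGs. In the 300-bp windows of the members, none of the 31 CpGs of Ifngr2 was listed in any library and 1 of 26 in Ifnar1, but all 23 of Tyk2, 13 of 18 in Ifnar2, 13 of 18 in Irf3, 7 of 14 in Ifngr1, 6 of 22 in Stat2, 4 of 9 in Irf9 and 1 of 7 in Irf7 were. No CpG of any of these windows was listed in all 4 libraries, so at the very starts the same site could not be compared between libraries.

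**Figure D1:**
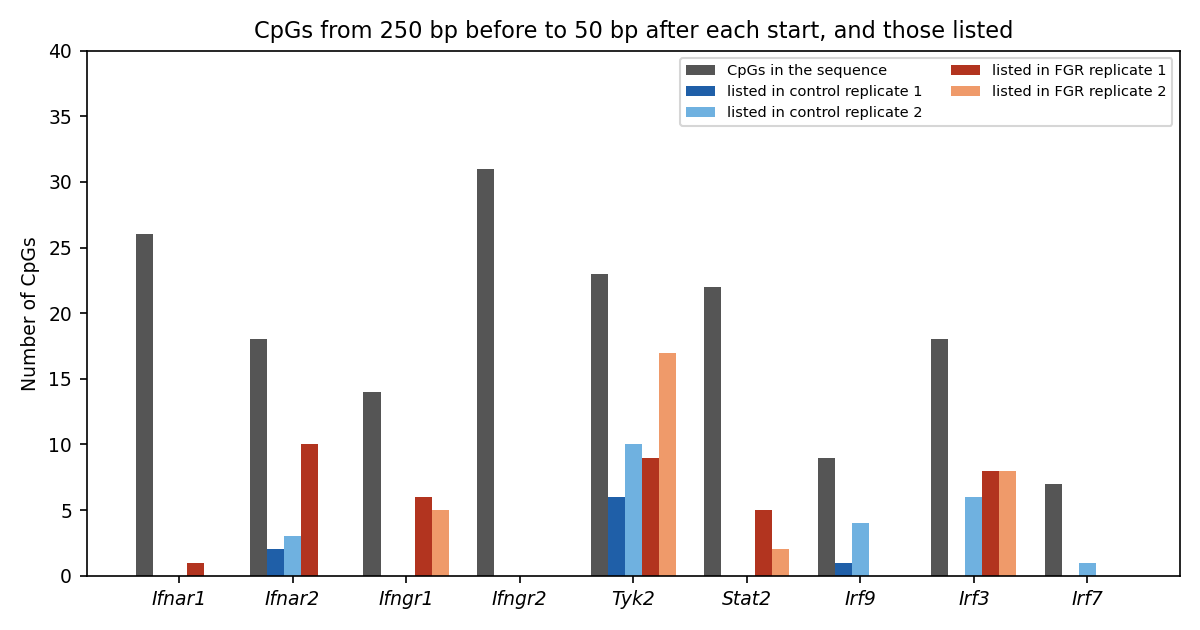
Number of CpGs (vertical axis) from 250 bp before to 50 bp after the start of each gene (grey bars) and the number of them listed in each library (coloured bars). Tyk2 was the best covered, with 6, 10, 9 and 17 of its 23 CpGs listed, while Ifngr2 had 31 CpGs and none listed.

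Some facts of the whole data set bear on the genes. The libraries listed between 7615146 (FGR replicate 1) and 13578464 (FGR replicate 2) cytosines, with summed coverages of 49563150 to 91762720 reads and a mean of 6.51 to 6.76 reads per listed cytosine. The autosomal level was 76.0% and 76.4% in the controls and 74.6% and 75.6% in FGR, so the group means differed by -1.05 percentage points. At the 1418485 CpGs that no library lacked, 8.89% of 15954515, they differed by -0.386 points. Starts of 3 of 6 microglial markers had reads and were unmethylated, with pooled levels of 1.90% for P2ry12, 2.22% for Cx3cr1 and 0% for Sall1 (221 reads), while among 13 markers of other cell types, 6 of which had reads at the start, the starts of the neuronal gene Rbfox3 (82.0%), the myelin gene Mog (82.6%), the T cell gene Cd3e (76.9%) and the astrocyte gene Gfap (69.5%) were methylated. The start of Gfap stood at 90.5% and 88.5% in controls against 56.0% and 68.0% in FGR, that of the astrocyte gene Aldh1l1 ranged from 7.45 to 52.2% over libraries and that of the endothelial gene Cldn5 from 9.68 to 39.0%. The part of other cell types in the values given here was not tested, and in DNA from many cells a change within microglia and a change in the mix of cells cannot be told apart.

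The level near the start was lower than farther out on both sides in each of the 9 genes, and the plot of levels by distance shows the width of the trough for each gene. A low stretch is here a run of at least 4 neighbouring listed CpGs, each under 30% over the reads of the 4 libraries together. Such a run covered the start in 7 of the 9 genes, began 13 bp after it in Irf7 and was missing over the start of Irf9 used here. Libraries are given in the order control replicate 1, control replicate 2, FGR replicate 1, FGR replicate 2, and where a library had no methylated read the upper limit that a count of 0 allows (3 reads of the total) follows. Read numbers of a region are sums over its CpGs, in which a fragment that spans several CpGs enters repeatedly, and limits and intervals cover counting error only.

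**Figure D2:**
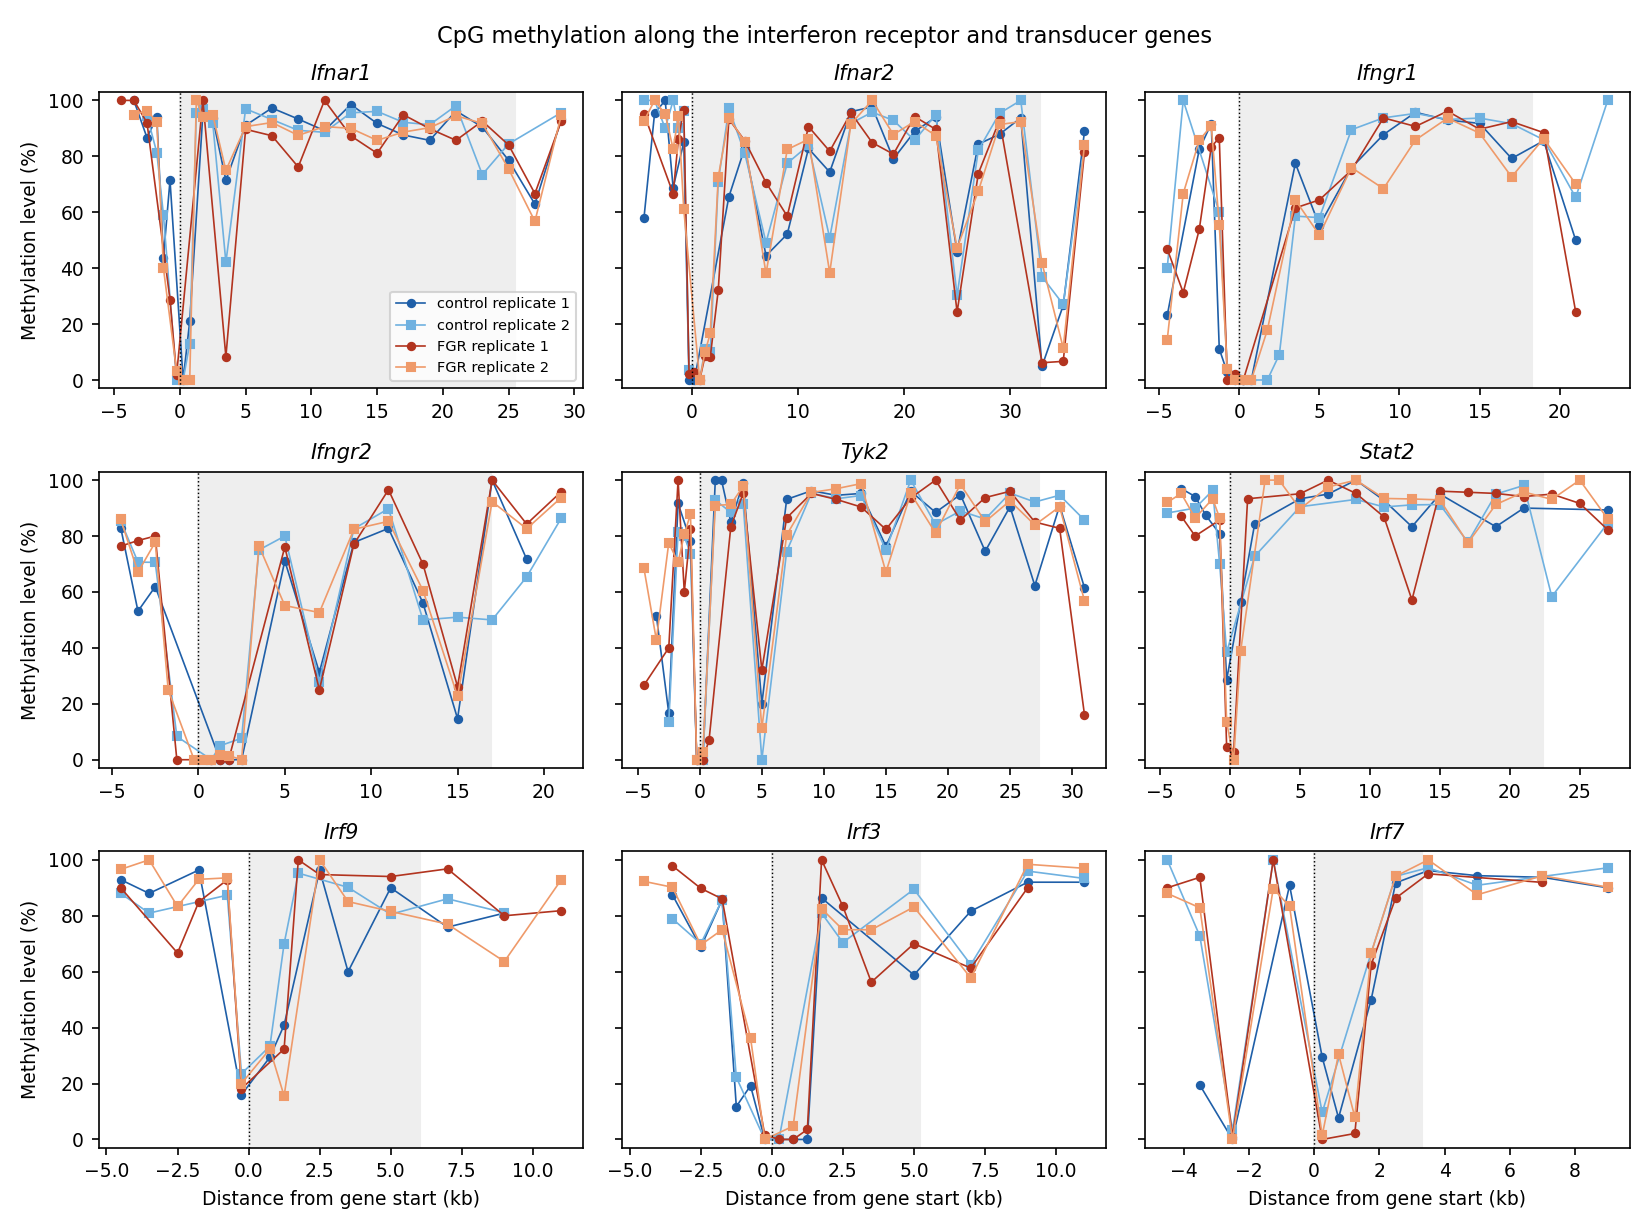
Methylation level (percent of reads, vertical axis) of each library in windows by distance from the gene start (kb, horizontal axis), for windows with at least 10 reads. The dotted line marks the start and the shading the length of the gene. The levels dip at the start in 8 genes, and the windows next to the start of Irf9 hold 16 to 33.3%. Further dips lie away from the start in Ifnar2, Ifngr2, Tyk2 and Irf7, among others.

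The 4 receptor genes had broad unmethylated stretches around their starts, none of them listed without gaps. The largest gap between neighbouring listed CpGs was 664 bp in Ifngr1, 376 bp in Ifnar1 and 385 bp in Ifnar2. Ifngr1 (chr10:19591949-19610229, plus strand), the ligand-binding chain for interferon gamma, had a low stretch of 2750 bp with 57 listed CpGs, from -1200 to 1548 bp relative to the start, at 1.58, 4.04, 0.926 and 1.65%. Its 1000-bp tile with the lowest level, chr10:19592001-19593000 inside the 5′ part of the gene, was at 0 in every library, of 123, 42, 30 and 68 reads. Ifngr2 (chr16:91547059-91564007, plus strand), the second chain of that receptor, had the longest stretch of the 9 genes, 4938 bp with 40 listed CpGs and gaps of up to 543 bp between them, at 1.23, 5.33, 0 (limit 2.16) and 1.84%. As no CpG of its 300-bp window was listed, the start itself was not measured, only the CpGs on its sides. Ifnar1 (chr16:91485032-91510523, plus strand), the chain that binds Tyk2, had 1277 bp with 28 CpGs at 0 (limit 15.8), 4.05, 3.70 and 0.694%. Ifnar2 (chr16:91372783-91405589, plus strand), the high-affinity chain for type I interferon, had 2469 bp with 53 CpGs at 0 (limit 2.97), 10.5, 4.52 and 14.8%, the most variable of the receptor starts. The libraries listed different parts of it, control replicate 1 only CpGs before 500 bp after the start and FGR replicate 2 only CpGs beyond. From 1000 to 1500 bp, where control replicate 1 had no reads, the others had 11.1, 8.51 and 10%.

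Away from the start low stretches were also found in the span of every receptor gene, in Ifnar1 only past the gene. In Ifnar1 every 2000-bp window from 4000 to 26000 bp after the start held between 79.7 and 95.1% over pooled reads, with no low stretch inside the gene. Ifngr2 held a second unmethylated region from 14482 to 15343 bp after the start, near the 3′ end of the gene, where 29 CpGs had 1.64, 0 (limit 20), 2.44 and 2.11%. A shorter one lay 6714 to 7133 bp after the start, with 10 CpGs at 20, 13.6, 0 (limit 20) and 0% (limit 20) on 5, 44, 15 and 15 reads. No other gene of the reference table overlaps the extended span of Ifngr2, Ifngr1 or Tyk2, so these regions belong to no other listed gene. Ifnar2 had a low stretch of 15 CpGs from 25402 to 26251 bp after the start at 2.44, 3.70, 10.4 and 14.3%, and the tile that holds most of it, chr16:91398001-91399000, had 41.1, 25.3, 22.7 and 32.1% once its flanking CpGs were counted. Shorter runs in Ifnar2, from 9553 to 9897 and from 12924 to 13124 bp, were at 3.03% of 66 and 2% of 50 pooled reads. The stretch of 43 CpGs from 32826 bp after the start of Ifnar2, at 2.55, 3.70, 2.86 and 5.66%, lies past the gene and spans the lower-coordinate end of Il10rb, which encodes a chain of the interleukin 10 receptor.

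Tyk2 (chr9:21104068-21131393, minus strand), the receptor-bound kinase, had the best measured start. Its low stretch of 967 bp held 45 CpGs at 0 (limit 3.03), 0 (limit 1.92), 0.526 and 1.34%, on 99, 156, 190 and 149 reads. In the 300-bp promoter window alone 1 of 253 reads was methylated. Within 1500 bp of the start but outside the stretch the DNA was methylated, with pooled levels of 73.8 to 94.7% in the 500-bp windows beyond 500 bp before and 1000 bp after the start. A second stretch of 10 CpGs, 5100 to 5814 bp inside the gene, was unmethylated too, at 0 (limit 20), 0 (limit 14.3), 0 (limit 7.89) and 2.44%.

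Stat2 (chr10:128270498-128292853, plus strand), the transducer specific to type I and III interferons, had a start that was hardly listed in controls. Its stretch of 840 bp held 27 CpGs, of which the controls listed 1 each, with 30% of 10 reads and 0 of 6 reads (limit 50), whereas FGR replicates 1 and 2 listed 17 and 21, at 3.19 and 4.07%. Different CpGs of this start were therefore read in the groups. Inside the gene Stat2 was methylated, between 81.3 and 100% over pooled reads in every window from 1000 to 22000 bp after the start except 80% from 1500 to 2000 bp. The apolipoprotein gene Apof overlaps the start and Il23a reaches into the downstream flank.

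Irf9 (chr14:55603985-55610030, plus strand), the DNA-binding subunit of ISGF3, was the exception among the starts used, of which its own is the outermost of those RefSeq lists. The nearest low stretch ended at -216 bp and had 4 CpGs at 16.0, 15.6, 18.2 and 20%, close together in the 4 libraries. Its 300-bp window was listed in controls only, at 16.7% of 6 reads (Wilson 95% interval 3.01 to 56.4) and 25% of 28 reads (12.7 to 43.4). From 500 to 1000 bp after the start the libraries had 29.4, 33.3, 40 and 32.4%. Intermediate levels were thus found on both sides of this start, in the gene with few CpGs there. The second start, at chr14:55604579, lies within that last window. The 1 CpG of its own promoter window had 0 methylated of 15 reads, 5 in control replicate 2 and 10 in FGR replicate 2. The exception therefore holds for the start used here and may not hold for the second. The ubiquitin ligase gene Rnf31 ends just before the start of Irf9.

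Irf3 (chr7:44997648-45002848, plus strand), a sensor-activated inducer of type I interferon genes, shares its start region with Bcl2l12, which is read from the other strand and starts at -69 bp. The common low stretch of 1784 bp held 64 CpGs, the most of any member, at 0 (limit 2.44), 0 (limit 1.86), 1.31 and 1.05%. Irf7 (chr7:141263183-141266499, minus strand), the interferon-induced member of the pair, had the narrowest stretch at a start, 428 bp from 13 to 439 bp after it, with 14 CpGs at 0 (limit 42.9), 2.90, 0 (limit 30) and 1.45%. A second one, 1010 to 1486 bp inside the gene, was listed in the FGR libraries only, with 11 CpGs at 2.13 and 5.71%. Upstream of Irf7, from -3038 to -2116 bp relative to the start, 23 CpGs around the 3′ end of the cadherin gene Cdhr5 had 0 (limit 12), 3.23, 1.02 and 3.45%. At Irf7 2 of the 4 libraries had too few reads over the stretch at the start to bound its level tightly.

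Over whole extended spans the 9 genes differed widely from each other. By the mean of the 4 libraries the order from low to high was Ifngr2 (60.7%), Irf3 (62.2%), Irf7 (62.4%), Ifngr1 (69.2%), Ifnar2 (70.8%), Tyk2 (71.9%), Irf9 (79.4%), Ifnar1 (84.1%) and Stat2 (84.2%), with a median of 74.6% over 32609 genes. Neighbours in this order overlapped in the ranges of their 4 libraries except Tyk2 and Irf9, whose libraries lay at 62.7 to 76.4% and at 77.2 to 81.5%. Leaving out the CpGs within 1500 bp of the start moved Irf3 most, to 84.9%, and left Ifngr2 lowest at 65.7% and Stat2 highest at 90.5%.

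FGR was compared with control over the extended spans, the question being whether growth restriction goes with another methylation level at the genes that receive interferon. The FGR mean was below the control mean in 9 of 9 members, which 63.1% of all genes tested share, while 36.9% of genes had a higher one. In 5 members (Ifnar1, Ifngr2, Tyk2, Stat2 and Irf7) the higher FGR library still stood under the lower control, against 25.8% of all genes. None was called at an adjusted p under 0.05 with a difference of at least 10 points, by a quasi-binomial model of the reads with limma's moderated spread, and the background was 0% of 32609 genes. At an unadjusted p under 0.05 there were 2 members (Ifnar1 and Irf7), beside 6.29% of all genes, and limma on log2 ratios called 0 genes as well, with 1990 at that unadjusted p. The median difference over the members was -6.99 points and over all genes -1.11.

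The largest difference was at Irf7, with 70.9, 68.6, 49.7 and 60.6%. Means were 69.7 ± 1.64% in control and 55.1 ± 7.68% in FGR (SD, n = 2 each). The difference of -14.6 points had p = 0.0466 and an adjusted p of 0.785 in the quasi-binomial model. The FGR libraries were both lower but differed from each other by more than the controls did. The second was Stat2, with 87.6, 89.1, 76.4 and 83.9%, a difference of -8.18 points (adjusted p = 0.823). Ifnar1 had 88.2, 87.8, 78.7 and 81.7%, or 88.0 ± 0.274% against 80.2 ± 2.15% (SD, n = 2 each), and its difference of -7.78 points had the smallest p of the members in the model, 0.0125 with an adjusted p of 0.765. Here the gap between the groups was wider than the spread within either.

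Of the other members with separate groups, Ifngr2 had 61.0, 68.0, 55.2 and 58.7%, a difference of -7.58 points, and Tyk2 had 74.3, 76.4, 62.7 and 74.0%, a difference of -6.99 points. In Tyk2 FGR replicate 2 lay only just below the controls. The groups overlapped at the remaining 4 genes. Ifnar2 had 69.0, 75.8, 61.0 and 77.5% (-3.13 points), Ifngr1 67.3, 74.0, 65.6 and 69.8% (-2.98 points), and Irf3 62.3, 64.6, 48.3 and 73.6% (-2.51 points), so the FGR replicates of Ifnar2 and Irf3 fell on either side of both controls. Irf9 stood at 79.7, 79.1, 81.5 and 77.2%, a difference of -0.0578 points. FGR replicate 1, the shallowest library, was the lowest of the 4 in 8 of 9 genes, beside 39.8% of all genes. Without it 7 of 9 differences were negative, beside 56.7% of all genes, with a median of -2.23 points, and those of Ifnar2 and Irf3 became 5.10 and 10.2 points.

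**Figure D3:**
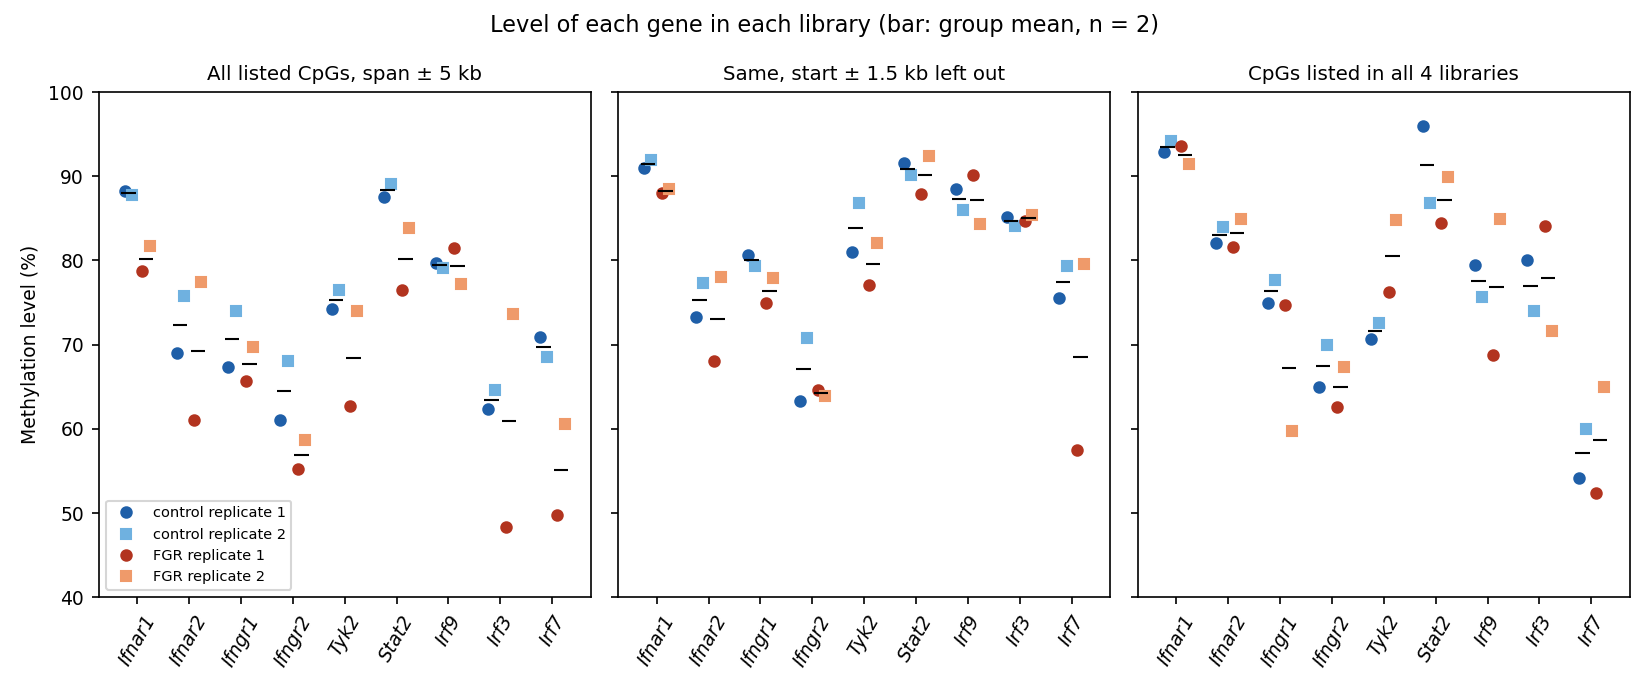
Methylation level (percent of reads, vertical axis from 40) of each gene in each library, with bars at the group means (n = 2), over all listed CpGs of the extended span (left), without the CpGs within 1500 bp of the start (middle) and at CpGs listed in all 4 libraries (right). On the left all 9 FGR means lie below the control means, and on the right 5 do.

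The libraries also differed in where in a gene their reads lay. The share of a span's reads within 1500 bp of the start was highest in FGR replicate 1 in 6 of 9 members, while that library was highest in 32.8% of 24860 genes with at least 100 reads per library. In Stat2 the shares were 12.3, 7.98, 20.7 and 17.9%, in Ifnar1 5.84, 8.19, 13.1 and 9.62%, in Ifngr2 3.61, 4.2, 14.6 and 8.22%, and in Irf7 12.7, 19.8, 21.9 and 36.5%. In each of them both FGR shares lay above both control shares, an order whose frequency over all genes was not counted. The part of read placement in the level differences was not tested. In Tyk2 the shares were 13.5, 18.5, 21.3 and 15.8%, with FGR replicate 2 between the controls. The order of shares was not always the reverse of the order of levels. In Irf7 FGR replicate 2 had the highest share but a higher level than FGR replicate 1, and in Ifngr1, with 16.9, 9.20, 14.7 and 12.2%, control replicate 1 had the highest share but not the lowest level. In Irf3 the shares were 28.4, 23.8, 44.3 and 14.9%, and the library with the highest share had the lowest span level and the one with the lowest share the highest. The medians over the 24860 genes were alike, at 12.4, 12.2, 13.2 and 12.9%.

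**Figure D4:**
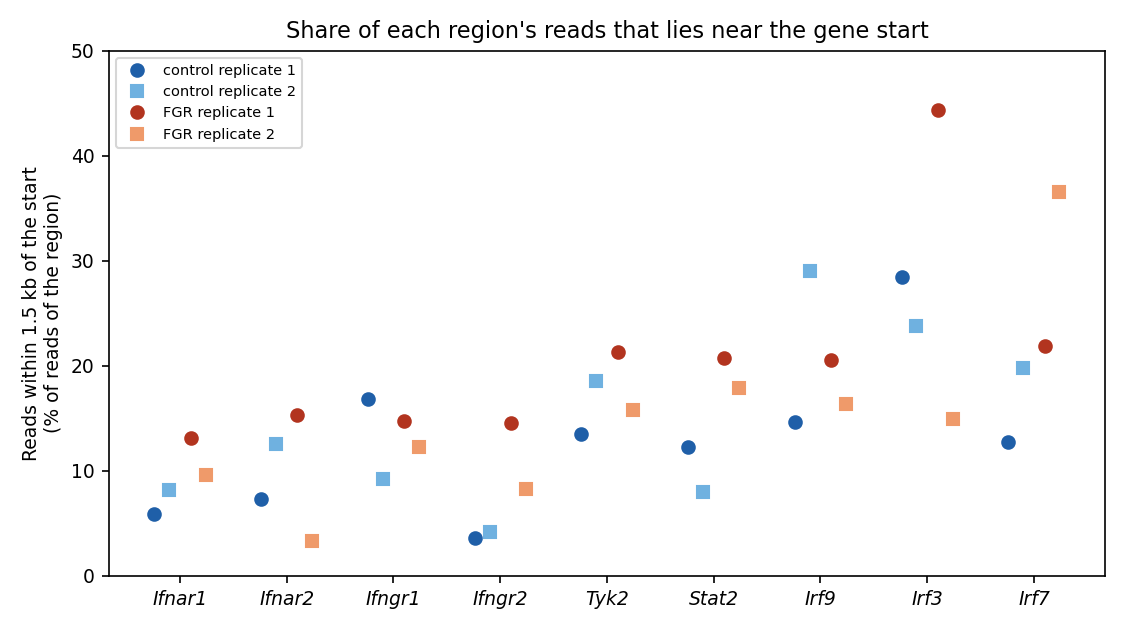
Share of the reads of each extended span (percent, vertical axis) that lies within 1500 bp of the gene start, for each gene and library. FGR replicate 1 is highest in 6 of 9 genes and reaches 44.3% in Irf3.

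Leaving out the CpGs within 1500 bp of the start was a comparison chosen after seeing the data. The median difference was then -2.82 points over the members, beside -0.763 over 25495 genes. Over whole spans it had been -6.99 points over the members and -1.11 over 32609 genes. The differences were -0.740 points in Stat2, -2.82 in Ifngr2, -3.20 in Ifnar1, -4.30 in Tyk2 and -8.85 in Irf7. These 5 genes had been picked by their span levels, so their smaller differences here are no test. In Ifngr1, not among them, the difference was -3.61 points, against -2.98 over its span. In Irf7 the libraries had 75.5, 79.3, 57.6 and 79.6%, so only FGR replicate 1 lay below the controls. From -3000 to -2000 bp, at 1.29% over pooled reads, it had 98 of its 278 reads. The others had 20 of 282, 62 of 406 and 53 of 441 there. The FGR mean was lower in 8 of 9 members, beside 60.9% of 25495 genes under this setting, and the groups were apart with FGR lower in 2, Ifnar1 and Ifngr1, beside 24.4%. Ifnar1 had 91.0, 92.0, 88.0 and 88.5% and Ifngr1 80.7, 79.3, 74.9 and 77.9%. When only 1000-bp tiles with reads in all 4 libraries were used, each with equal weight, also chosen after seeing the data, the differences ranged from -3.53 (Ifnar1) to 3.39 points (Ifngr2), with a median of 0.0384.

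Restricting each gene to the CpGs that none of the libraries lacked compares the same sites, at the price of few sites. The members kept between 4 (Irf7) and 42 (Ifnar2) such CpGs, 2.06 to 8.06% of those listed in any library. The FGR mean was lower in 5 of 9 genes, beside 53.6% of 29996 genes, and higher in 4, beside 46.3%. The median difference was -0.775 points, beside -0.296 over all genes. No member was called by the quasi-binomial model, and the background was again 0%, with 1 member (Ifngr1) at an unadjusted p under 0.05 beside 5.70% of all genes. Irf7, the member with the largest difference over its span, stood at 54.2, 60, 52.4 and 65.0% here, on 20 to 24 reads per library, a difference of 1.61 points. Ifnar1 had 92.9, 94.1, 93.6 and 91.4% over 31 CpGs (-0.994 points). Ifnar2 had 82.0, 84.0, 81.6 and 85.0% over 42 CpGs (0.285 points), the closest match between groups on the largest number of sites.

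Both FGR libraries lay below both controls at 1 member, Ifngr1, against 18.7% of all genes, and above both at 1, Tyk2, against 14.7%. Ifngr1 had 75, 77.7, 74.8 and 59.7% over 15 CpGs, or 76.3 ± 1.89% against 67.2 ± 10.6% (SD, n = 2 each). The difference of -9.10 points had p = 0.0264 and an adjusted p of 0.830 in the quasi-binomial model, and it rested on FGR replicate 2, without which it was -1.58 points. Tyk2 had 70.7, 72.6, 76.3 and 84.7% over 9 CpGs, a difference of 8.85 points (adjusted p = 0.943), opposite in sign to its difference over all listed CpGs. The remaining genes overlapped, with differences of -4.19 points in Stat2, -2.49 in Ifngr2, -0.775 in Irf9 and 0.892 in Irf3.

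Gene starts were compared from 1500 bp before to 500 bp after the start, where 8 of 9 members reached the minimum for a test (3 CpGs and 10 reads per library), and Ifngr2 did not. Over 18273 genes the median level was 55.4% and 19.0% of starts were under 20%. The means of the 4 libraries were 3.91% for Irf3, 15.4% for Ifngr1, 21.5% for Tyk2, 22.5% for Ifnar1, 43.6% for Irf7, 51.1% for Stat2, 51.8% for Ifnar2 and 53.8% for Irf9. Of the 8 tested, 5 were lower in FGR, beside 54.6% of all starts, and 3 higher, beside 45.3%. None was called by the quasi-binomial model, with 0% of all starts called and 0 members at an unadjusted p under 0.05, beside 5.33% of starts. At most 4 CpGs of a member's window (Tyk2) were listed in all 4 libraries, so the windows mix CpGs inside and outside the trough.

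Irf3 was the steadiest start, at 5.98, 2.30, 2.65 and 4.71%. The start of Stat2 had 59.6, 75, 25.6 and 44.0%, a difference of -32.5 points (adjusted p = 0.965), and its FGR libraries listed 17 and 21 CpGs of the unmethylated stretch against 1 in each control. At Ifnar1 the values were 45.3, 17.8, 16.8 and 9.92% (-18.2 points). Both of these genes had FGR below both controls at the start, as did 19.3% of all starts. At Ifnar1 control replicate 1 had no reads from -500 bp to the start, where the others had 0 (limit 30), 1.72 and 3.23%. Ifnar2 varied widely within both groups, with 14.05, 79.5, 30.1 and 83.6%. Neither control replicate 2 nor FGR replicate 2 had reads there from 0 to 500 bp, where the other libraries had 0 (limit 3.49) and 2.82%. Irf9 had 16.0% in control replicate 1 and 63.8, 60 and 75.6% in the others, a difference of 27.9 points (adjusted p = 1). Control replicate 1 had no reads there from -1000 to -500 bp, where the others had 87.4, 92.9 and 93.5%. From -500 bp to the start the libraries had 16.0, 23.5, 18.2 and 20%. The widest spread within a group was 46.3 points (SD, n = 2, controls of Ifnar2).

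Tiles of 1000 bp gave a finer view, and 98 tiles in the 9 genes met the same minimum. Of these 66 had a mean level above 80% and 9 one below 20%. FGR was lower in 50, beside 51.8% of all tiles, and higher in 46, beside 48.1%, with a median difference of -0.281 points. None was called by the quasi-binomial model, against 0.00163% of 550538 tiles, and 6 (2 in Ifngr1 and 1 each in Ifnar1, Ifnar2, Ifngr2 and Irf9) were at an unadjusted p under 0.05 beside 4.37% of all tiles. At shared CpGs 23 tiles in 7 members could be tested, and none was called, against 0.000686% of 145706. FGR was lower in 12 of these, beside 51.1% of all such tiles, and higher in 11, beside 48.1%, and 1 was at an unadjusted p under 0.05, beside 5.27%. Of 19589 single CpGs 2 lay in a member, both in Ifnar2. Neither was called (0% of all CpGs) or at an unadjusted p under 0.05 (4.74% of all), and both were lower in FGR, beside 49.2% lower and 46.9% higher of all CpGs. The one with the smaller p, chr16:91378555-91378556, had 78.6, 72.7, 60 and 72.7% of 14, 11, 10 and 11 reads.

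The smallest p of any tile was in Irf9, at chr14:55605001-55606000, inside the gene. It had 40.9, 87.1, 48.9 and 15.6% on 22, 62, 45 and 45 reads, so a control and an FGR library stood close together between the extremes. The difference was -31.8 points, with p = 0.00578 and an adjusted p of 0.863 in the quasi-binomial model. Without control replicate 1 the difference was -54.9 points with an adjusted p of 0.00237, and without FGR replicate 1 it was -48.4 points with 0.00457, both within the limits of a call. A group is then 1 library whose spread is assumed to be that of the other, and under these settings 1486 and 1400 tiles of all were called, against 9 with all libraries. None of its 17 CpGs was listed in all 4 libraries. The tile holds a low stretch of 5 CpGs, 1024 to 1115 bp after the start, with 10% of 10 reads, no listed CpG, 15% of 20 reads and 0 of 31 reads (limit 9.68) in the 4 libraries. At the 7 CpGs of the tile listed in both groups the pooled level was 59.6% of 52 control reads and 45.3% of 53 FGR reads.

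In the 4 receptor genes the tile with the smallest p was at an unadjusted p under 0.05 in the quasi-binomial model. Groups did not overlap in these tiles. Of the 98 tiles 21 had both FGR values under both controls and 18 had both above, beside 17.7% and 15.3% of all tiles. At chr16:91498001-91499000 in Ifnar1 the levels were 100, 96.4, 77.5 and 90.4%, at chr16:91395001-91396000 in Ifnar2 100, 96.2, 86.0 and 83.1%, and at chr10:19603001-19604000 in Ifngr1 95, 100, 85.9 and 82.3%. These lie 13285, 22717 and 11551 bp from the starts and differed by -14.3, -13.6 and -13.4 points. At chr16:91566001-91567000, past the 3′ end of Ifngr2, FGR was higher, with 77.8, 66.7, 89.7 and 91.1% (18.1 points), and its 3 shared CpGs had 70, 66.7, 84.2 and 90.5%. Unadjusted p-values of these 4 tiles in the model were 0.0341, 0.0336, 0.0294 and 0.0295, and each adjusted p was 1. The 3 shared CpGs of the Ifngr1 tile had 89.2, 100, 93.8 and 62.5%, where only FGR replicate 2 was low.

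In the members left, the smallest p of a tile was 0.0506 at chr9:21133001-21134000 before the start of Tyk2 (16.7, 57.1, 55.0 and 69.7%), 0.0971 at chr7:141269001-141270000 before Irf7 (12.5, 14.3, 25.6 and 27.5%), 0.16 at chr7:44998001-44999000 in Irf3 (0, 0, 1.71 and 11.5%) and 0.411 at chr10:128268001-128269000 before Stat2 (94.0, 90, 85.7 and 88.5%), unadjusted in the quasi-binomial model. The Irf7 tile is also its least methylated one and holds the 3′ end of Cdhr5. FGR was higher than control in the tiles of Tyk2, Irf7 and Irf3 and lower in that of Stat2, so no common direction was seen. Groups were apart in the tiles of Irf7, Irf3 and Stat2 and overlapped in that of Tyk2. The least methylated tiles of the other genes were chr16:91548001-91549000 in Ifngr2 (0, 3.12, 0 and 1.49%), chr7:44997001-44998000 in Irf3 (0, 0, 0.893 and 0%), chr9:21131001-21132000 in Tyk2 (25.4, 14.1, 4.48 and 13.0%), chr16:91372001-91373000 in Ifnar2 (6.31, 3.57, 1.56 and 61.1%), chr16:91489001-91490000 in Ifnar1 (100, 55.6, 59.3 and 71.4%) and chr10:128265001-128266000 in Stat2 (80, 77.8, 80 and 90%). In Ifnar1 and Stat2 no tile over the trough had enough reads in all libraries, and in Ifnar2 FGR replicate 2 listed 3 CpGs of that tile against 20 in control replicate 1.

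Other genes of the pathway gave the same picture of no call. The list held 34 genes (ligands, further Jak, Stat and Irf genes, sensors and adaptors, and inhibitors), and all 34 were tested over their extended spans. None was called (0% of all genes), and 24 were lower and 10 higher in FGR, beside 63.1% and 36.9% of all genes. The median difference was -1.42 points beside -1.11 over all genes. In the quasi-binomial model 2 (Jak2 at -4.09 points and Socs1) were at an unadjusted p under 0.05, beside 6.29% of all genes. At shared CpGs 33 were tested (not Socs1), 19 lower and 14 higher, beside 53.6% and 46.3% of all genes, with a median of -0.365 points. None was called, and 3 were at an unadjusted p under 0.05 in that model, beside 5.70%. The smallest p was at Ticam1 (-17.7 points, adjusted p = 0.278 in the quasi-binomial model). Of the 18 gene starts tested none was called. The lowest differences over spans were at Irf5, a transcription factor of inflammatory macrophages (61.5, 69.9, 44.0 and 55.5%, -15.9 points), Ifnk, an epithelial type I interferon (-10.9 points), and Ticam1, the adaptor TRIF (-9.99 points). The highest were at Socs1, a feedback inhibitor of Jak kinases (58.1, 67.9, 84.7 and 73.9%, 16.3 points), Ifna4 (6.96 points) and Myd88, an adaptor of Toll-like receptors (5.59 points). At shared CpGs Irf5 differed by -1.77 points and Irf7, as above, by 1.61 points. These sites hold 283 of the 2856 reads of Irf5 and 85 of the 1880 of Irf7. The 4 shared CpGs of Irf7 all lie in chr7:141264001-141265000. They are too small a part of the spans to show whether the span differences hold at the same sites.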

How the data were processed

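Bisulfite sequencing reads of 2 control and 2 FGR libraries had been trimmed and aligned before deposit. According to the submitters' processing notes the tools were Trim Galore 0.6.5, Bismark in an unstated version and methylKit 1.28.0, on mm10. Per the file headers, a deposited table gives, for each cytosine of a CpG on its strand, the coverage as a read count and the methylated and unmethylated percent. Coverage under 5 does not occur in the deposited tables. For each CpG the strands were added up, and in each library the top 0.1% of CpGs by coverage were dropped. A level is methylated over all reads of a region, a difference is the FGR minus the control mean in percentage points, and regions needed 3 CpGs and 10 reads per library (single CpGs 10 reads).

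Group was the only term of the quasi-binomial model. Its overdispersion was moderated with squeezeVar of limma 3.58.1 (R 4.3.3) with a floor of 1, and Benjamini-Hochberg adjustment ran over all regions of a kind. Calls required both an adjusted p under 0.05 and at least 10 points. The alternative limma test used log2 of (methylated + 0.5) over (unmethylated + 0.5). The quasi-binomial model was also run on simulated reads, drawn around a common level per region for the libraries of a group. As the real libraries list different CpGs, that run does not show the error or power of the tests here. Gene spans, starts and promoters are RefSeq's for GRCm38.p6, and 155500 of 155500 listed CpGs inside promoters fell on a CG.

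All 9 members are named, in each the tile and CpG with the smallest p and the tile with the lowest mean, and from the pathway list the 3 largest differences each way. Members, lists and the limits of a low stretch were chosen with earlier results of these data known. Replicate numbers were not taken as pairs: same-numbered libraries' deviations correlated by 0.0174 over spans and 0.00211 over tiles.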

Additional observations from a re-analysis of the deposited data

How the results depend on the processing

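Over 50 named spans, starts, tiles and CpGs of the members, 346 of 394 values under other settings kept their direction and their side of the threshold and 46 turned their direction. No member's span or start passed the test under any setting run. Differences over spans turned positive with tiles listed in all libraries for Ifnar2 (1.90), Ifngr2 (3.39), Irf3 (2.36), Irf9 (3.09) and Tyk2 (0.0384), with CpGs listed in both groups for Ifngr1 (0.463), Irf3 (0.660), Irf7 (1.31) and Tyk2 (1.15), and without the flank for Ifngr1 (1.21) and Irf3 (13.1). Irf3 also turned with CpGs of at least 8 reads (26.4) and without the start (0.417), Irf9 with each CpG weighted equally (0.611), and the start of Tyk2 at shared CpGs (8.91).

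Leaving out each library in turn gave ranges that include 0 for the spans of Ifnar2 (-11.4 to 5.10), Ifngr1 (-6.32 to 0.350), Irf3 (-15.2 to 10.2) and Irf9 (-2.23 to 2.11), for the shared CpGs of Ifnar1 (-2.07 to 0.0810), Ifnar2 (-1.38 to 1.95), Ifngr2 (-5.0 to 0.0186), Stat2 (-8.75 to 0.376), Irf3 (-5.32 to 7.10), Irf7 (-4.70 to 7.92) and Irf9 (-8.87 to 7.32), and for the starts of Ifnar2 (-22.7 to 42.8), Ifngr1 (-19.3 to 11.7), Irf3 (-2.31 to 1.38), Irf7 (-5.56 to 23.0) and Tyk2 (-14.4 to 3.48). The same held for the least methylated tiles of Ifnar1 (-34.7 to 9.79), Ifnar2 (-3.38 to 56.2) and Ifngr2 (-2.38 to 0.746) and for tiles at shared CpGs of Irf7 (-4.70 to 7.92) and Irf9 (-6.09 to 7.85). That tile of Irf7 holds the same 4 CpGs as its span at shared CpGs.

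Over the whole genome, 9 tiles were called, 0 with limma, 1 with at least 30 reads, 259 with the replicate block and 1320 to 1486 without a library. At shared CpGs 1 tile was called, 0 with limma or at least 30 reads and 0 to 2 without a library. Spans at shared CpGs had 0 called and up to 4 without a library (FGR replicate 2), and gene starts at shared CpGs had 3 called of 3776. The cause of these shifts was not tested. The replicate block changed no call in a member.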
